A study of Homo sapiens with 12 samples.

Results

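The comparison sets splicing after knockdown of PRMT4 against splicing after knockdown of PRMT5 in HEK293T, an established line derived from human embryonic kidney. An event entered when MISO, a program that estimates the usage of transcript forms, had a value for it in all 7 deposited columns, which held for 10358 of 16199 listed events in 4788 gene symbols. The difference is the PRMT4 column minus the PRMT5 column, and the control does not enter it. Every culture carried a stable lentiviral hairpin: 2 hairpins each for PRMT4 and PRMT5, likewise for PRMT1, PRMT3 and PRMT7, 1 hairpin for PRMT6 and 1 scramble hairpin as the control, 12 poly(A) RNA-seq libraries in all. The deposited values hold 1 column per target, with the hairpins of a target merged, so every PSI is 1 number from the authors, without SD, n or test. Read depth is unknown, and how far each knockdown lowered its target was not analysed here.

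PRMT4, also called CARM1, places asymmetric dimethyl marks on arginines, among others of splicing factors, the Mediator subunit MED12 and chromatin proteins. PRMT5 is the main enzyme for symmetric dimethylarginine. With its partner WDR77 it methylates the Sm proteins, the ring of the spliceosomal snRNPs, before the SMN complex assembles them on small nuclear RNAs. The measure of splicing is PSI (percent spliced in), the part of an event's transcripts that include an exon, keep an intron or use the longer of 2 splice site choices, on a scale from 0 to 1. For mutually exclusive exons it is the share with the exon listed first.

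Some of the events on which the comparison turns are shown by their letters. The exons of PHTF2, PPP1R35 and CDCA3 were lower in PRMT4 than in PRMT5 knockdown, and those of TPD52L1 and EBPL and the intron of KIF18B were higher. The alternative exon or intron is in capitals and the 20 exonic bases on each side are in lower case, 5′ to 3′ on the gene's strand. The letters are those of GENCODE v29 transcripts (GRCh38), found by gene, strand and exact exon and intron lengths, while positions are those of the deposited table (GRCh37).
PHTF2: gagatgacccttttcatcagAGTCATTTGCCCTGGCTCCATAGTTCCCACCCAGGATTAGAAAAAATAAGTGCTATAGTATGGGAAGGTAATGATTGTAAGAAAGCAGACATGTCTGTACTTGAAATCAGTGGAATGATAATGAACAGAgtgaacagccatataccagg
PPP1R35: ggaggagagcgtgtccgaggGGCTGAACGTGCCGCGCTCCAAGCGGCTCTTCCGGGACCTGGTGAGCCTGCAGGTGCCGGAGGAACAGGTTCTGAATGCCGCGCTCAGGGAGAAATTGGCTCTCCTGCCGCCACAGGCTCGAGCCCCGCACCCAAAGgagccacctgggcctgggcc
CDCA3: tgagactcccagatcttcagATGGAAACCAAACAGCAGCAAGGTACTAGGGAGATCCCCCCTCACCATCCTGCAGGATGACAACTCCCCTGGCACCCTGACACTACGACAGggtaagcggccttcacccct
TPD52L1: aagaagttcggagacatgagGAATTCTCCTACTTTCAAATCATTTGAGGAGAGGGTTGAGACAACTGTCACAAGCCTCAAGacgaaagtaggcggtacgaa
EBPL: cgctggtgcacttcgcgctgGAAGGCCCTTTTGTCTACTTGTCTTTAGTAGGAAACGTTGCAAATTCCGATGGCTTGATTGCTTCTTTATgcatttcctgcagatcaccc
KIF18B: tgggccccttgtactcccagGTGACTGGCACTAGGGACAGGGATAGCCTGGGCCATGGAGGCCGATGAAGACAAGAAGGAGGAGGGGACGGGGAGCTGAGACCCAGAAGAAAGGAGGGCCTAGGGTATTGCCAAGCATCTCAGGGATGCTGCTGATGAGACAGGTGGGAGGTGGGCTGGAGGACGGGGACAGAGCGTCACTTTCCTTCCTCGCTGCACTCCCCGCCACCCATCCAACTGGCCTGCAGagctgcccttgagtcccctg

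PSI was lower in PRMT4 than in PRMT5 knockdown more often than higher, in every event type. Differing here means a PSI difference of 0.1 or more, a threshold of size with no p-value. Of the 10358 events, 964 differed (9.31%), in 742 genes, with 368 higher (3.55%) and 596 lower (5.75%) in PRMT4 knockdown. The lower share was 61.8% (95% exact interval 58.7 to 64.9, which covers the counting of events only and takes events of the same gene as independent). On the logit scale, at a difference of at least 0.5, 3963 events differed, and the split was nearly even at 1918 higher and 2045 lower (51.6% lower). Differences of at least 0.2 were seen in 196 events, 71 higher and 125 lower, and of at least 0.3 in 42 events, 14 higher and 28 lower. The threshold lies where events are dense: 158 events differed by 0.10 to under 0.11 and 165 by 0.09 to under 0.10, while 2490 events had the same PSI in both columns.

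Cassette exons gave 495 differing events (8.18% of 6050), 191 higher (3.16%) and 304 lower (5.02%). Retained introns differed most often for their number, 149 of 1152 (12.9%), 57 higher (4.95%) and 92 lower (7.99%). Alternative 3' splice sites leaned furthest to the lower side by MISO, with 97 differing of 1179 (8.23%), 29 higher (2.46%) and 68 lower (5.77%). Their lower share was 70.1% (95% interval 60.0 to 79.0, which overlaps those of the other types). Alternative 5' splice sites had 132 differing of 1037 (12.7%), 53 higher (5.11%) and 79 lower (7.62%). For mutually exclusive exons, with 91 differing of 940 (9.68%), 38 higher (4.04%) and 53 lower (5.64%), the interval of the lower share, 47.4 to 68.5%, included 50%. The median difference was 0 in each type, and the mean was -0.0084 PSI over retained introns (SD over events 0.067) and -0.0033 over cassette exons (SD 0.056).

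**Figure D1:**
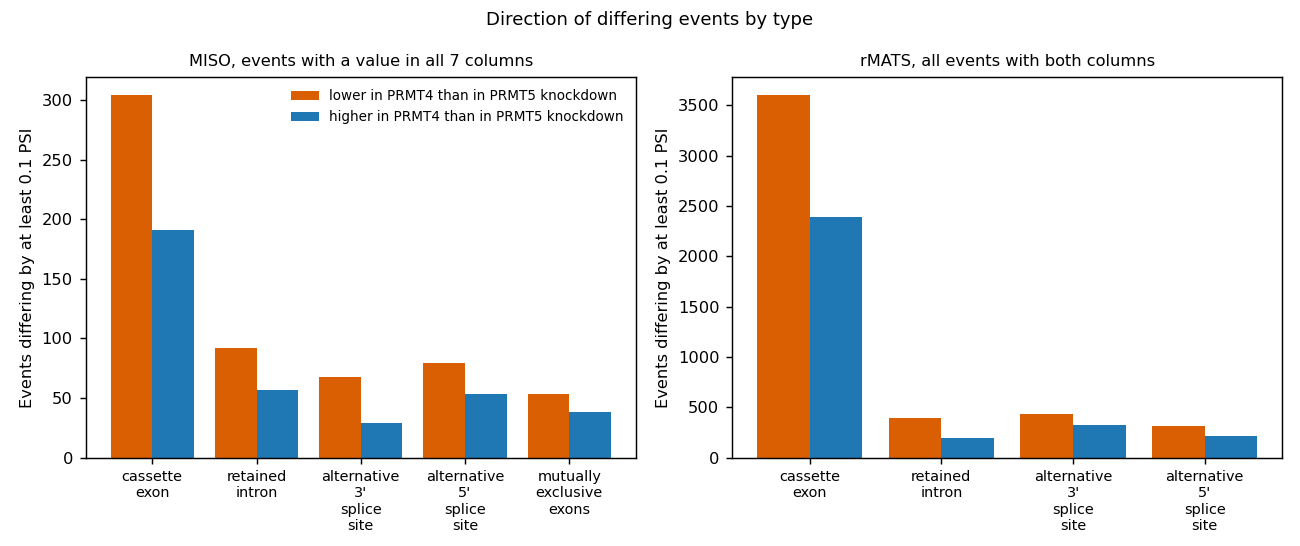
Number of events differing by at least 0.1 PSI between PRMT4 and PRMT5 knockdown, by event type and direction, in the MISO values (left) and in all events of the authors' rMATS table (right, which lists no mutually exclusive exons). In each type the bar for lower PSI in PRMT4 knockdown is the taller, for example 304 against 191 cassette exons by MISO.

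The second deposited table holds PSI differences from rMATS, a program that counts junction reads, made from the same libraries and therefore no independent replicate. The difference of its PRMT4 and PRMT5 columns could be matched by splice junctions for 6540 of the events. The sign of the deposited rMATS values is not stated. A common sign for all targets was chosen from their correlation with MISO, and all rMATS values are given here with the sign turned. The overall direction by rMATS therefore rests on MISO and is no separate check of it. Of the 615 matched events that differed by MISO (9.4%; higher 3.52%, lower 5.89%), 479 (77.9%) had the same sign in the authors' deposited table, against 62.4% of the 4997 with any MISO difference other than 0. Only 124 (20.2%) also reached 0.1 there with the same sign, and 8 reached 0.1 with the opposite sign. Events higher in PRMT4 knockdown held their sign in 167 of 230 cases (72.6%) and those lower in 312 of 385 (81.0%). Across the 6540 events, which are not replicates, the Pearson correlation of both differences was 0.398. By the authors' deposited table alone, 290 of the matched events differed (4.43%), 80 higher (1.22%) and 210 lower (3.21%). In the authors' deposited table, 7851 of all 71540 events differed (11%), 3119 higher (4.36%) and 4732 lower (6.61%), a lower share of 60.3%. The lower share there was 60.1% for cassette exons, 67.3% for retained introns, 56.7% for alternative 3' and 59.3% for alternative 5' splice sites. Alternative 3' splice sites, which leaned furthest by MISO, thus leaned least in this larger set of events. In the matched events their lower share was 76.7% by MISO (33 of 43 differing) and 76.9% by rMATS (10 of 13). By rMATS the matched shares were 70.3% for cassette exons, 79.1% for retained introns and 83.3% for alternative 5' splice sites.

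**Figure D2:**
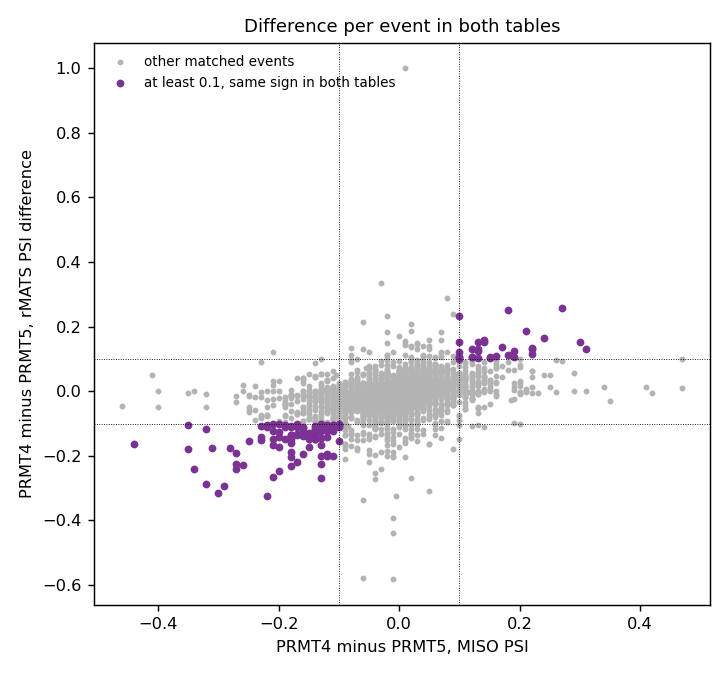
PRMT4 minus PRMT5 difference of each of the 6540 matched events by MISO (x axis, PSI) and in the authors' rMATS table (y axis, PSI difference), with dotted lines at 0.1 in each direction. The 124 purple points differ by at least 0.1 with the same sign in both tables, and 93 of them lie on the lower left.

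The 124 events that differed the same way in both tables (1.9% of the matched events) lay in 113 genes, with 31 higher (0.474%) and 93 lower (1.42%) in PRMT4 knockdown. They were 96 cassette exons (1.91% of those matched; 27 higher, 69 lower), 14 retained introns (1.89%; 2 and 12), 9 alternative 3' splice sites (1.94%; 1 and 8) and 5 alternative 5' splice sites (1.55%; 1 and 4). The events described next are the largest of them in each type and direction, and a part of those so chosen is given.

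Among cassette exons lower in PRMT4 knockdown, the exon of CDCA3, which promotes mitotic entry, was included at 0.49 in PRMT4 and 0.83 in PRMT5 knockdown (chromosome 12, 6958487 to 6958577, minus strand). The control stood at 0.56, and PRMT1, PRMT3, PRMT6 and PRMT7 knockdown at 0.48, 0.67, 0.40 and 0.58. PRMT5 knockdown was thus the highest of the 7 columns, with PRMT4 inside the range of the rest. The authors' deposited table gave a PRMT4 minus PRMT5 difference of -0.242. In GENCODE v29 this exon of 91 bases is listed in no protein-coding transcript, although the bases on either side are coding.

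The PHTF2 exon of 129 bases (chromosome 7, 77567027 to 77567155, plus strand) is coding, and its length is a multiple of 3. It stood at 0.65 in PRMT4 and 0.97 in PRMT5 knockdown, against 0.79 in the control and 0.71, 0.67, 0.85 and 0.75 in PRMT1, PRMT3, PRMT6 and PRMT7 knockdown. These were the lowest and the highest of the 7 values, so the target columns stood apart on opposite sides. The authors' deposited table gave -0.287.

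An exon of DNAJC5, the cysteine string co-chaperone of secretory vesicles, showed the same order (chromosome 20, 62562462 to 62562535, plus strand). Its PSI was 0.32 in PRMT4 and 0.61 in PRMT5 knockdown, 0.41 in the control, and 0.37, 0.45, 0.32 and 0.50 in PRMT1, PRMT3, PRMT6 and PRMT7 knockdown. This exon is listed in GENCODE v29 in no protein-coding transcript but in a transcript marked for nonsense-mediated decay, the removal of mRNAs with an early stop. The authors' deposited table gave -0.292, from -0.102 for PRMT4 and 0.19 for PRMT5 against the control.

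The largest MISO difference among cassette exons in both tables was that of OBSL1, a cytoskeletal adaptor (chromosome 2, 220422065 to 220422340). It was included at 0.12 in PRMT4 and 0.56 in PRMT5 knockdown, with the other 5 columns between 0.09 and 0.36. The authors' deposited table gave a smaller difference, -0.163. An exon of INO80E, a subunit of the INO80 chromatin remodeller, stood at 0.20 and 0.55, with the rest between 0.12 and 0.30 and -0.105 in the authors' deposited table. There the INO80E difference came from -0.111 for PRMT4 and -0.006 for PRMT5 against the control, where MISO placed PRMT5 farther from it. An exon of NKD2, a Wnt pathway inhibitor, stood at 0.06 and 0.34, and one of DMKN, a secreted epidermal protein, at 0.15 and 0.42. PRMT5 knockdown was the highest column for all 4 of these exons.

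For other lower exons PRMT3 knockdown gave an extreme value. That of PPP1R35, a centriole protein (chromosome 7, 100033254 to 100033390, minus strand), was at 0.51 in PRMT4 and 0.83 in PRMT5 knockdown, but PRMT3 knockdown reached 0.84. The FAM193B exon was at 0.31 and 0.66, with PRMT3 knockdown at 0.74. The exon of RIPK2, a kinase of innate immune signalling, was at 0.36 in PRMT4 knockdown and at 0.66 in PRMT5 knockdown, the highest column, with PRMT3 knockdown the lowest at 0.13. The authors' deposited table gave -0.118 for PPP1R35, -0.179 for FAM193B and -0.315 for RIPK2.

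Fewer cassette exons were higher in PRMT4 knockdown in both tables, and the largest was that of MTMR2, a phosphoinositide phosphatase (chromosome 11, 95647406 to 95647476). It stood at 0.83 in PRMT4 and 0.52 in PRMT5 knockdown, 0.78 in the control, and 0.66, 0.49, 0.75 and 0.68 in PRMT1, PRMT3, PRMT6 and PRMT7 knockdown. PRMT4 knockdown was the highest column, and PRMT3 rather than PRMT5 the lowest. In GENCODE v29 the exon lies in a UTR of a protein-coding transcript. The authors' deposited table gave 0.13.

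The TPD52L1 exon, 61 coding bases on chromosome 6 (125578244 to 125578304, plus strand), had the highest value in PRMT4 knockdown, 0.47, and the lowest in PRMT5 knockdown, 0.25. The other 5 columns lay between 0.32 and 0.40, and the authors' deposited table gave 0.133. The exon of PLEC, the cytoskeletal linker plectin, 3381 bases long, stood at 0.56 and 0.29, again the extremes of the 7 columns, with the control at 0.32. For it the authors' deposited table gave 0 for PRMT4 and -0.258 for PRMT5 against the control, where MISO placed PRMT5 nearer the control. GPBP1L1 (0.54 and 0.35) showed the same extremes, while for CAPN15 (0.39 and 0.09), MPPE1 (0.55 and 0.33) and ZBTB21 (0.26 and 0.08) at least 1 other column lay outside them.

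**Figure D3:**
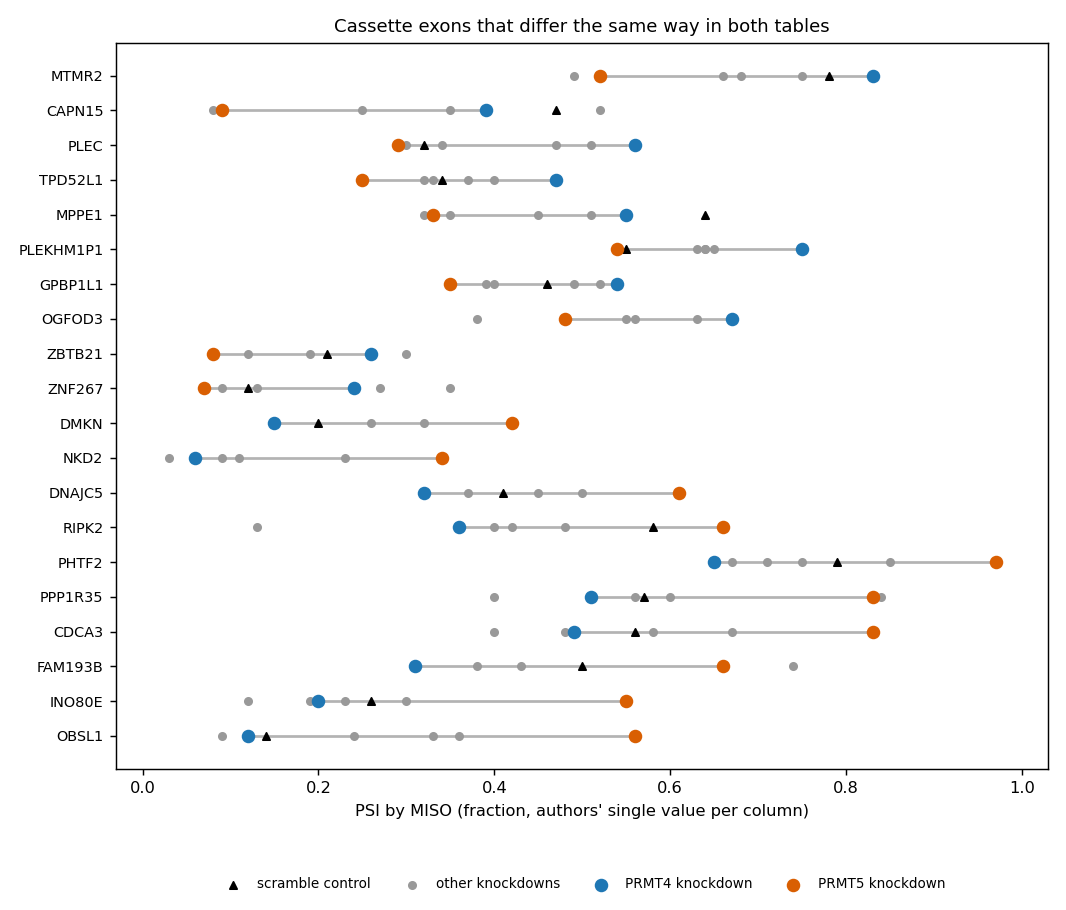
PSI by MISO (x axis, 0 to 1) of the 10 largest cassette exons in each direction that differ by at least 0.1 in both tables, 1 row per gene. Blue is PRMT4 knockdown, orange PRMT5 knockdown, the black triangle the scramble control and grey the other knockdowns; each point is the authors' single value, so there are no error bars. For OBSL1, INO80E, CDCA3, PHTF2, RIPK2, DNAJC5, NKD2 and DMKN the orange point is the highest of the row, for example 0.97 for PHTF2.

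Introns that differed in both tables were retained less in PRMT4 knockdown in 12 of 14 cases. The intron of YDJC, 135 bases (chromosome 22, 21983697 to 21983831), stood at 0.56 in PRMT4 and 0.87 in PRMT5 knockdown, with the control at 0.68 and the others between 0.51 and 0.72. The authors' deposited table placed both knockdowns below the control for it, at -0.287 and -0.112, where MISO placed PRMT5 above. An intron of PIDD1, the scaffold that activates caspase-2 as part of the PIDDosome, was at 0.37 and 0.64, and PRMT1 knockdown shared the 0.37. Introns of PGGHG (0.37 and 0.60) and of MOV10, an RNA helicase (0.24 and 0.46), went the same way. In the authors' deposited table the differences were -0.175 for YDJC, -0.224 for PIDD1, -0.151 for PGGHG and -0.111 for MOV10.

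The 2 introns higher in PRMT4 knockdown were those of ARHGEF18 and of KIF18B, a kinesin that shortens microtubules. The ARHGEF18 intron (chromosome 19, 7535202 to 7535422) was at 0.52 in PRMT4 and 0.34 in PRMT5 knockdown, with the other 5 columns between 0.44 and 0.52. The KIF18B intron (chromosome 17, 43003555 to 43003781, minus strand) was at 0.85 and 0.75, with the others between 0.83 and 0.93. In each case PRMT5 knockdown was the lowest column by MISO and PRMT4 was not apart. The authors' deposited table gave 0.251 for ARHGEF18 and 0.151 for KIF18B. For KIF18B this came from -0.002 for PRMT4 and -0.153 for PRMT5 against the control. For ARHGEF18 it came from 0.208 for PRMT4 and -0.043 for PRMT5, so there PRMT4 lay farther from the control.

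Alternative splice sites in both tables mostly showed less of the longer form in PRMT4 knockdown. At the 3' splice sites of MECOM, a zinc finger transcription factor, PSI was 0.61 in PRMT4 and 0.84 in PRMT5 knockdown, with the rest between 0.68 and 0.83. UBE2D3, a ubiquitin-conjugating enzyme, stood at 0.23 and 0.44, CAPN10 at 0.32 and 0.52, and RNF216, a ubiquitin ligase, at 0.25 and 0.44. PRMT4 knockdown was the lowest column for MECOM, CAPN10 and RNF216. In the opposite direction, SUPT20H, a SAGA complex subunit, stood at 0.44 and 0.20. At 5' splice sites, the centrosomal genes PCNT (pericentrin, 0.61 and 0.78) and TUBGCP6 (a gamma-tubulin complex protein, 0.46 and 0.62) were lower, as were WDR73 (0.05 and 0.19) and the helicase gene RECQL4 (0.75 and 0.86), and ZNF652 was higher (0.69 and 0.47). Their differences in the authors' deposited table ran from -0.127 for CAPN10 to 0.166 for SUPT20H.

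**Figure D4:**
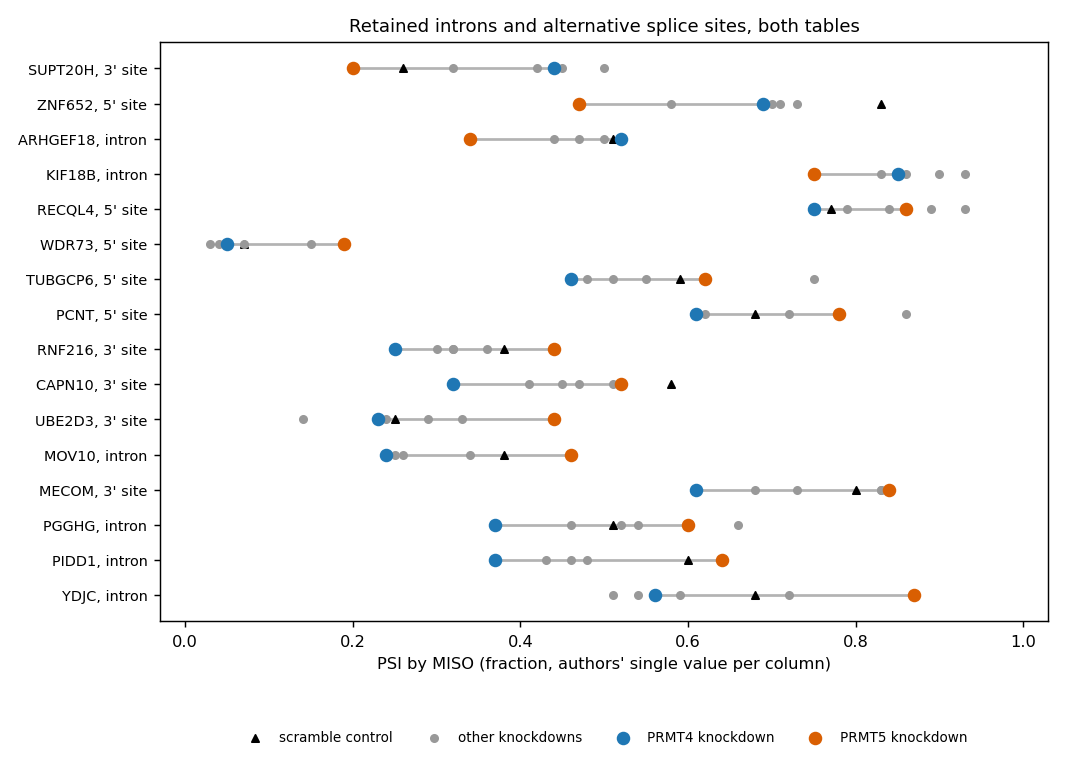
PSI by MISO (x axis, 0 to 1) of the retained introns and alternative splice sites that differ most in both tables, drawn as for cassette exons (blue PRMT4, orange PRMT5, black triangle control, grey other knockdowns, 1 deposited value per point, no error bars). In 12 of the 16 rows the blue point lies left of the orange one, as for YDJC (0.56 against 0.87).

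Mutually exclusive exons are listed by MISO alone, so their direction was not checked. The first-listed exon of CCDC117 had its lowest PSI in PRMT4 knockdown, 0.30, against 0.90 in PRMT5 knockdown and 0.62 to 0.93 in the other columns. ERI3 (0.52 and 0.94) and METTL9, a protein histidine methyltransferase (0.40 and 0.75), also had their lowest value in PRMT4 knockdown. SRP9, a subunit of the signal recognition particle, had its highest in PRMT5 knockdown, 0.90 against 0.41. In BCL2L11, which encodes the cell death protein BIM, the value was 0.45 in PRMT4 and 0.19 in PRMT5 knockdown, with the rest between 0.18 and 0.31.

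The largest MISO differences of all were not, for the most part, those found in both tables. The largest, an event of SLC22A5, the carnitine transporter (0.20 in PRMT4, 0.86 in PRMT5 knockdown, 0.38 to 0.95 elsewhere), had no match in the authors' deposited table. The EBPL exon (chromosome 13, 50243913 to 50243982, minus strand) was at 0.57 in PRMT4 knockdown and at 0.10 in PRMT5 knockdown, with 0.25 in the control and 0.16 to 0.26 elsewhere. It missed 0.1 narrowly in the authors' deposited table at 0.099, from 0.021 for PRMT4 and -0.078 for PRMT5 against the control. MISO instead placed PRMT4 farther from the control. The PRAF2 exon was at 0.88 and 0.41 by MISO but differed by 0.011 in the authors' deposited table. The 5' splice site of FBXL19 was at 0.22 and 0.68, with -0.047 in the authors' deposited table.

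Among all differing events, PRMT5 knockdown was more often the column that stood apart. It lay outside the range of the other 6 columns in 517 of the 964 differing events (53.6%, against 19.9% of all 10358 events), and PRMT4 knockdown in 362 (37.6%, against 15.8%). The events were chosen by the difference between both columns, which favours extreme values in either. The rise over all events is thus partly built in. In 382 events only PRMT5 lay outside, in 227 only PRMT4, in 135 both and in 220 neither. The balance depended on direction for cassette exons. Of the 304 lower in PRMT4, PRMT5 lay outside in 60.5% and PRMT4 in 29.6%, and of the 191 higher, PRMT4 lay outside in 49.2% and PRMT5 in 38.2%. For the 57 introns higher in PRMT4 knockdown, PRMT5 lay outside in 61.4% and PRMT4 in 28.1%. In the 124 events of both tables, PRMT5 lay outside in 74 and PRMT4 in 38, and the most frequent case was PRMT5 above all the others (56 events). The PRMT5 column held MISO values for fewer events than any other knockdown (12238, beside 13748 for PRMT4). Whether this bears on how often PRMT5 stood apart was not tested.

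The other couples of knockdowns place these counts. The 964 differing events rank 6th from the top of the 15 couples, between 608 for PRMT1 and PRMT4 and 1138 for PRMT3 and PRMT6. Against PRMT5 knockdown, PSI of differing events was lower more often than higher in every one of the other 5 knockdowns, and these comparisons share the PRMT5 column. PRMT1 differed from it in 962 events (9.29%), 356 higher (3.44%) and 606 lower (5.85%) in PRMT1. PSI was the higher in PRMT5 knockdown in 680 (6.56%) of the 1070 events that differed from PRMT3 (10.3%), 662 (6.39%) of 988 from PRMT6 (9.54%) and 523 (5.05%) of 820 from PRMT7 (7.92%). The share with lower PSI in PRMT4, 61.8%, was the smallest of the 5, beside 63.0% for PRMT1, 63.6% for PRMT3, 67.0% for PRMT6 and 63.8% for PRMT7, so the direction is not particular to PRMT4. PRMT1 and PRMT4 differed from each other in 608 events (5.87%), 272 higher (2.63%) and 336 lower (3.24%) in PRMT1.

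Cassette exons lower in PRMT4 knockdown had a median length of 140.5 bases, those higher 111 and all exons 125. Exons with a length that is a multiple of 3 made up 49.2% of those higher, 39.8% of those lower and 41.6% of all. Where GENCODE v29 gave the sequence, the median GC content was 51.1% in the lower exons, 48.1% in the higher and 48.3% in all, and G was the last base in 79.8%, 87.4% and 80.7%. In the authors' deposited table the lean to the lower side was the same for exons longer than 30 and shorter than 300 bases whether or not the length was a multiple of 3, 60.7% lower in each. Microexons of up to 30 bases differed in 5 of 86 cases by MISO (5.81%, beside 8.18% of all cassette exons). In the authors' deposited table they differed in 152 of 911 cases (16.7%, beside 10.5% of all its cassette exons), 76 in each direction.

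Differing exons were concentrated where the exon is neither always used nor always skipped. When the mean PSI of the other 5 columns was 0.2 to under 0.5, 158 of 357 exons differed (44.3%), and at 0.5 to under 0.8, 136 of 326 (41.7%). Under 0.2 it was 78 of 1940 (4.02%) and at 0.8 and above 123 of 3427 (3.59%). The SD of the difference over events was 0.126 and 0.129 in the middle classes and 0.038 in each outer class. A fixed threshold in PSI favours the middle classes, because exons near an end of the scale have little room to move towards it. The shares therefore cannot show whether exons of middle PSI are more sensitive to the knockdowns. By annotation, exons in UTRs differed in 14.2% of 565 cases and coding exons in 6.55% of 3267. Exons of transcripts marked for nonsense-mediated decay and of no protein-coding transcript differed in 5.71% of 420. The shares by annotation were not adjusted for PSI level, so the same limit applies to them.

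The directions were most even among the shortest introns. Of those up to 200 bases, 21 were higher and 17 lower in PRMT4 knockdown, of those above 200 and up to 1000 bases 27 and 49, and above 1000 bases 9 and 26. The lower share in these classes was 44.7% (95% exact interval 28.6 to 61.7), 64.5% (52.7 to 75.1) and 74.3% (56.7 to 87.5), with intervals that overlap. In all retained introns of the authors' deposited table the lower share was 56.3% (48.9 to 63.5), 73.1% (67.9 to 77.9) and 70.7% (59.0 to 80.6), so the shortest introns were again the most even, and their interval did not reach that of the middle class. PRMT1 minus PRMT5 differences, which share the PRMT5 column, gave 38.5%, 72.6% and 73.3%. Median intron length was 504 bases for the lower, 291 for the higher and 362.5 for all introns. The introns began with GTAAG or GTGAG, the forms closest to the 5' splice site consensus, in 52.9% of the higher, 40.5% of the lower and 39.4% of all introns with a sequence. GTGAC, the start of the KIF18B intron above, is neither.

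**Figure D5:**
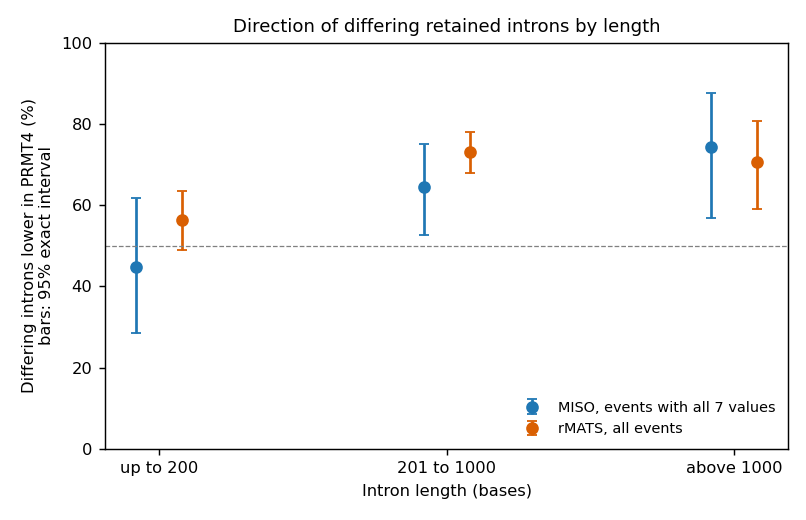
Share of differing retained introns with lower PSI in PRMT4 than in PRMT5 knockdown (y axis, percent) by intron length in bases (x axis), for MISO events with all 7 values (blue) and all events of the authors' rMATS table (orange). Bars are 95% exact intervals that cover the counting of events only, and the dashed line is at 50%; the shortest introns have the lowest share in each table, 44.7% and 56.3%.

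Genes listed as PRMT genes and PRMT5 cofactors had 4 differing events of 33 (12.1%, beside 9.31% of all events), and each was higher in PRMT4 knockdown. They include both copies of an SMN exon. Events of GEMIN2 (0.86 in PRMT4, 0.95 in PRMT5 knockdown) and GEMIN6 (0.09 and 0.18) went the opposite way and fell just short of the threshold. The median difference was 0.01, beside 0 over all events. SMN1 and SMN2 are nearly identical genes for the survival motor neuron protein, which takes up Sm proteins methylated by PRMT5. The exon of 54 bases at 70247768 to 70247821 of chromosome 5 was included at 0.79 in PRMT4 and 0.59 in PRMT5 knockdown, 0.74 in the control, and 0.82, 0.69, 0.75 and 0.73 in PRMT1, PRMT3, PRMT6 and PRMT7 knockdown. Its copy at 69372348 to 69372401 was at 0.60 and 0.47, 0.52 in the control, and 0.64, 0.34, 0.54 and 0.51 in the same order. PRMT5 knockdown was the lowest column for the first copy and PRMT3 knockdown for the second. How reads were shared between the copies is not known, and the authors' deposited table gave only 0.032 for the first and -0.05 for the second. An exon of MTAP, the enzyme that clears methylthioadenosine, an inhibitor of PRMT5, stood at 0.96 and 0.76, with 0.016 in the authors' deposited table. A mutually exclusive exon of PRMT2 stood at 0.14 and 0.03.

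Core spliceosome and Sm genes differed in 4 of 56 events (7.14%, beside 9.31% of all events), all lower in PRMT4 knockdown, in SF1 and SNRPB; the median was 0. The intron of SF1, the branch point binding protein (chromosome 11, 64532991 to 64533422), was retained at 0.71 in PRMT4 and 0.90 in PRMT5 knockdown, 0.81 in the control and 0.67 to 0.88 in the others. It is listed as 2 events with nearly the same values. The longer 3' splice site form of SNRPB, the Sm protein B and a substrate of both enzymes, stood at 0.79 and 0.91. The authors' deposited table gave -0.041 for the SF1 intron and -0.059 for SNRPB, the same sign but under 0.1.

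Genes of splicing regulators differed in both directions. SR proteins and TRA2 had 7 differing of 57 events (12.3%; 3 higher, 4 lower), hnRNP genes 9 of 86 (10.5%; 3 and 6) and tissue splicing regulators 7 of 52 (13.5%; 3 and 4), beside 9.31% of all events and each with a median of 0. SR protein kinases had 0 of 15, with a median of 0.01. SRSF1 carried an intron at 0.22 in PRMT4 and 0.36 in PRMT5 knockdown and another at 0.94 and 0.82; PRMT3 knockdown lay farther out than either, at 0.67 and 0.54. The SRSF5 5' splice site was at 0.21 and 0.35, with -0.093 in the authors' deposited table, and that of SRSF2 at 0.39 and 0.22. An exon of HNRNPA1, a PRMT5 substrate, was at 0.32 and 0.50, where PRMT5 was the highest column and the others ran from 0.20 to 0.31; the authors' deposited table gave -0.011. The HNRNPD exon stood at 0.66 in PRMT4 knockdown by MISO, 0.73 in PRMT1 knockdown and at least 0.99 elsewhere, with 1 in PRMT5 knockdown, but the authors' deposited table gave 0. The 3' splice site of CELF1 was at 0.59 and 0.87, an exon of LUC7L3 at 0.08 and 0.35, an exon of MBNL1 at 0.66 and 0.83, and an intron of QKI at 0.88 and 0.67. Of these, the authors' deposited table matched LUC7L3 (-0.014), MBNL1 (-0.03) and QKI (0.005), none near 0.1. The same QKI intron is also listed as another MISO event at 0.44 in PRMT4 and 0.25 in PRMT5 knockdown. Its control stood at 0.34 there and at 0.92 in the event above, so its level differs between the entries.

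Genes whose proteins are known CARM1 substrates had 8 differing of 48 events (16.7%, beside 9.31% of all events; 3 higher, 5 lower), 6 of them in ATXN2L, a relative of ataxin-2. Several of these share splice sites in the same stretch of chromosome 16. The ATXN2L exon at 28847647 to 28847811 stood at 0.04 in PRMT4 and 0.17 in PRMT5 knockdown, with 0.06 to 0.13 elsewhere and -0.268 in the authors' deposited table. PRMT5 substrates had 4 of 32 (12.5%; 1 and 3), and genes with splice changes known after PRMT5 loss 6 of 66 (9.09%; 2 and 4). In that last list an exon of NUMB, an inhibitor of Notch signalling, was at 0.61 in PRMT5 knockdown and at 0.95 in PRMT4 knockdown, the highest column, against 0.46 to 0.84 elsewhere, with 0.013 in the authors' deposited table. The median difference of each of the 3 lists was 0.

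DNA repair genes had 6 differing of 106 events (5.66%, beside 9.31% of all events; 1 higher, 5 lower). The exon of RAD51AP1, a homologous recombination factor, was at 0.60 and 0.86, but the authors' deposited table gave 0.019, the opposite sign. MSH6, of mismatch repair, had a mutually exclusive exon at 0.33 and 0.15. Mitosis and cell cycle genes had 13 of 122 (10.7%; 5 and 8). Besides PCNT, an exon of NIN, the centrosomal protein ninein, was at 0.56 and 0.69 with -0.106 in the authors' deposited table, and the 5' splice site of CDK2 at 0.15 and 0.38. BOD1, needed for chromosome biorientation, had an exon at 0.90 and 0.48, and KIF23, a cytokinesis kinesin, one at 0.41 and 0.64. The authors' deposited table gave almost no difference for BOD1 (-0.004) and the opposite sign for KIF23 (0.09). Listed as a mutually exclusive exon, the same BOD1 exon stood at 0.69 in PRMT4 and 0.90 in PRMT5 knockdown, the opposite direction by MISO itself. PCNT, NIN and RECQL4 were the genes of these lists that reached 0.1 in both tables with the same sign.

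Chromatin genes had 18 differing of 138 events (13.0%, beside 9.31% of all events; 7 higher, 11 lower). KAT6A, a histone acetyltransferase, had overlapping exons at 0.25 in PRMT4 and 0.46 in PRMT5 knockdown and at 0.38 and 0.58, PRMT5 being the highest column in both. The authors' deposited table gave -0.265 and -0.246. BAHD1, a heterochromatin protein, had 3' splice sites 3 bases apart at 0.68 and 0.80, with -0.106. In BPTF, of the NURF chromatin remodeller, an exon stood at 0.52 and 0.93 by MISO, with PRMT3 at 0.90 and PRMT7 knockdown at 0.87, and the authors' deposited table gave 0.049. Exons of KMT2E (0.39 and 0.14), CHD6 (0.85 and 0.65) and ARID2 (0.22 and 0.05) were higher in PRMT4 knockdown, with 0.049, -0.002 and 0.044 in the authors' deposited table. The median of the DNA repair, mitosis and chromatin lists was 0 in each.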

How the data were processed

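Stranded poly(A) libraries of HEK293T cells were sequenced (HiSeq X10, per the labels' protocols) and handled with cutadapt 1.18 and HISAT on GRCh37, per the submitters' processing notes. Not given in the sources used here are the annotation, the settings of both programs and how hairpins were merged. MISO values were deposited by the authors as PSI, a fraction from 0 to 1 given to 2 decimals apart from 54 values. The authors also deposited rMATS differences for 6 targets, whose sign is not stated. Across 6608 to 6771 events matched by splice junctions per target, they correlated with MISO knockdown minus control at -0.600 to -0.366, so their sign was turned.

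No table gives read numbers, so depth and precision per value are unknown. The number of events with a MISO value was 13748 for PRMT4 and 12238 for PRMT5, the fewest of the knockdowns, and 12217 for the control. Of the PRMT4 and PRMT5 columns, 2216 events had a value only in PRMT4 and 706 only in PRMT5. Groups came from the labels. With 1 column per target no test was made, and a difference of at least 0.1 PSI was called differing. Shares have 95% exact (Clopper-Pearson) intervals. The members, the rule for named genes and the 15 gene lists were chosen with earlier results of these data known. By that rule the text names, of events with the same sign and at least 0.1 in both tables, the largest in each direction (10 for cassette exons, 4 for each other type; for mutually exclusive exons by MISO alone), the 10 largest by MISO, up to 4 genes per list, and events of PRMT genes and cofactors. It gives a part of them, and further members of a list, such as NIN, BAHD1, SRSF2 and MBNL1 or a second event of a gene, were added after their values were seen. Events were identified in GENCODE v29 by gene symbol, chromosome, strand and exact lengths at a unique place (5407 of 6050 cassette exons, 1018 of 1152 introns, 976 with a sequence), with no coordinate converted. Matching and calling were tested on simulated data. Scripts ran in Python 3.11.15 with scipy 1.17.1, pandas 2.3.3, numpy 2.4.6 and matplotlib 3.10.9. Alternatives tried were another threshold, missing values, a filter on mean PSI, a logit scale, 1 event per gene and rMATS.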

Additional observations from a re-analysis of the deposited data

How the results depend on the processing

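No paired analysis was possible because each target has 1 deposited column, which carries no hairpin number. For the same reason leaving out a hairpin was not run. The lower side held more events under every alternative run. The 964 differing events became 196 at 0.2 PSI, 2401 at 0.05 PSI and 3963 on the logit scale, and for events matched to rMATS 615 by MISO and 290 by rMATS, against 7851 in the whole rMATS table. Fewer events were eligible for matching; the cause of the other shifts was not tested. The share higher in PRMT4 knockdown was 38.6% of differing cassette exons, 47.9% on the logit scale and 29.7% by rMATS in matched events. For retained introns it was 38.3%, with 48.2% and 20.9% under the same alternatives. For the other types together it was 37.5%, with 30.9% at 0.2 PSI, 49.4% on the logit scale, and 32.1% by MISO and 20% by rMATS in matched events. Values in both columns alone, a mean PSI between 0.05 and 0.95 and 1 event per gene left the counts within 1.5 times and the shares within their intervals. The medians for introns and exons were 0, within the spread over events of their means. Of 94 events chosen by the rule for named genes, 70 had an rMATS value: 39 were at least 0.1 with the same sign, 22 smaller with the same sign or 0, and 9 had the opposite sign. These were RAD51AP1 (0.019), SRSF7 (0.005), BPTF (0.049), CHD6 (-0.002), KIF23 (0.09), RPS2 (0.017), BOD1 (-0.004), CDC27 (-0.009) and the second SMN copy (-0.05), by the authors' deposited table. Of the 39 with the same sign, all but those of KAT6A, ANK2 and EEF1D had entered because rMATS gave that sign and at least 0.1. The rule thus fixed most of this count, which does not measure agreement between the programs. Unknown depth limits every single value, and 1 column per target means that hairpins of a target could not be set against each other.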

Other observations

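Cytosolic ribosomal protein genes had 9 differing of 184 events (4.89%, beside 9.31% of all events), 1 higher and 8 lower, in 5 genes. The 3' splice site of RPL17 was at 0.20 in PRMT4 and 0.50 in PRMT5 knockdown, with 0.26 to 0.49 elsewhere, and a 5' splice site of RPS14 at 0.27 and 0.51, with 0.08 to 0.33 elsewhere. PRMT5 knockdown was the highest column for both, and neither was matched in the authors' deposited table. An exon of RPS2 stood at 0.46 and 0.70, but at 0.017 in the authors' deposited table.

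Translation factor genes had 11 differing of 148 events (7.43%, beside 9.31% of all events), 5 higher and 6 lower. Exons of EEF1D, a subunit of the exchange factor for elongation factor 1, overlap on chromosome 8 and stood at 0.17 in PRMT4 and 0.40 in PRMT5 knockdown, 0.09 and 0.32, and 0.06 and 0.25. PRMT5 knockdown was the highest column in all 3, and the authors' deposited table gave -0.142, -0.084 and -0.078. Other EEF1D events went the opposite way. An exon at 144671161 to 144672251 stood at 0.96 in PRMT4 and 0.81 in PRMT5 knockdown, the lowest column, with 0.035 in the authors' deposited table, and 2 mutually exclusive events stood at 0.15 and 0.03 and at 0.13 and 0.03. An intron of EEF1B2, of the same complex, was retained at 0.53 and 0.77, the lowest and the highest column, with no match in the authors' deposited table.

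Cytoskeleton genes had 9 differing of 104 events (8.65%, beside 9.31% of all events), 2 higher and 7 lower. An exon of ANK2, a membrane skeleton adaptor, stood at 0.61 and 0.74, with 0.75 in PRMT1 knockdown and -0.167 in the authors' deposited table. An exon of MAP4, a microtubule-binding protein, stood at 0.46 and 0.81, the lowest and the highest column, yet at -0.004 in the authors' deposited table. The median difference of the 3 lists was 0.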
